A study of Mus musculus with 4 samples.

Results

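The genes described here are 39 mouse genes of redox defence and glutathione metabolism, of 27597 genes listed in at least 1 of the deposited tables. They were chosen by name for what their products do, with earlier results of these data known, and all 39 were found. They fall into 6 peroxiredoxins, 3 genes of the thioredoxin system, 5 of glutathione supply, 4 glutathione peroxidases, 8 glutathione transferases, 4 genes of superoxide dismutase and catalase, 3 regulators, 2 enzymes of quinone and haem metabolism and 4 metal-binding proteins. RNA was sequenced from fibroblasts of the embryonic skin of OGXICR mice at D13.5, with the epidermis taken off, grown in medium with serum. All 4 groups were infected with a lentiviral system that is switched on by doxycycline. The control group carried an empty vector, SKM cells carried SOX2, KLF4 and c-MYC, OSKM cells carried these 3 factors with OCT4, and G3SKM cells carried them with GATA3. These are bulk infected populations whose infected share and days of induction no label states, and the libraries were made from amplified cDNA. Each group has 1 value per gene that stands for 2 replicates, so no spread between replicates, no test and no p-value can be given. The title of the series places the comparisons in the induction of pluripotency by lineage specifiers, here GATA3 in the place of OCT4.

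Cells remove peroxides along 2 linked routes. Peroxiredoxins are recharged by thioredoxin and thioredoxin reductase, and glutathione peroxidases draw on glutathione, a tripeptide that cells build from imported cystine. Many of these genes are known targets of NRF2, a transcription factor encoded by Nfe2l2 that KEAP1 marks for destruction until oxidants or electrophiles block it. NRF2 binds with small MAF proteins to antioxidant response elements, and BACH1 competes for the same sites. Ferritin belongs to the same defence because stored iron cannot take part in radical chemistry.

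RefSeq promoter windows on build GRCm38.p6, each 250 bases before to 50 after an annotated start, were at hand for 33 of the 39 members. The core letters of the antioxidant response element, TGACNNNGC on either strand, were searched in all of them. A match was found for 9 of the 33 members (27.3%), against 14.0% of the 27025 genes with a window. A match is a description of letters and no evidence of binding. Shown here are 4 windows with a match, from known NRF2 targets: Srxn1 and Txnrd1 had their highest value in empty vector, while Prdx1 and Gclm were higher in OSKM and G3SKM than in empty vector. The windows lie at chr2:152105274-152105573 for Srxn1, chr10:82858956-82859255 for Txnrd1, chr4:116685349-116685648 for Prdx1 and chr3:122245307-122245606 for Gclm, all on the plus strand. They are printed 5′ to 3′ with the matching letters in capitals, which here are the reverse complement, GCNNNGTCA.
Srxn1: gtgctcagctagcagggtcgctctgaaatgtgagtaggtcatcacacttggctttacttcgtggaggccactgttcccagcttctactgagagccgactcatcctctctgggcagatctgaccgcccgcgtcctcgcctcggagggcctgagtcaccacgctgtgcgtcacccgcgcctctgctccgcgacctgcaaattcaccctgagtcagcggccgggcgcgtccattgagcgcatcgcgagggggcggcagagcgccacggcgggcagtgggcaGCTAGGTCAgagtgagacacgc
Txnrd1: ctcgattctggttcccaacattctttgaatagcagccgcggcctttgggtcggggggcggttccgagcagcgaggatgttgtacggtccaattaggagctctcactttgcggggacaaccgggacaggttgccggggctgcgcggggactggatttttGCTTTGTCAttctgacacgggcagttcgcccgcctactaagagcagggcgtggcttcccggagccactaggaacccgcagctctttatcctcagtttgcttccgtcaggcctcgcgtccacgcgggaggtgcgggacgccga
Prdx1: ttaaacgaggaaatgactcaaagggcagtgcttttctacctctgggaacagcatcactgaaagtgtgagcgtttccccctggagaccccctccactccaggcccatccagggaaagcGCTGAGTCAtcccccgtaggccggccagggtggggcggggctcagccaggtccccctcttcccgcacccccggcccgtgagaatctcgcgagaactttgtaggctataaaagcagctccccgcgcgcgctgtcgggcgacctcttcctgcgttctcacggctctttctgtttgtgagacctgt
Gclm: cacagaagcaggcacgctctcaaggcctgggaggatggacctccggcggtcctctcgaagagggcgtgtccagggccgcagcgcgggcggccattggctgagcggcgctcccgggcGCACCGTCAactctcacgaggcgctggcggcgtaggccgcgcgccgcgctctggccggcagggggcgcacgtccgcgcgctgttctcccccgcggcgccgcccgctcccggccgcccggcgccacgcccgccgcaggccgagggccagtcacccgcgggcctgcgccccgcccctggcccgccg
The match began 28 bases after the start in Srxn1, and at position -92 in Txnrd1, -133 in Prdx1 and -134 in Gclm. Nqo1 and Gpx8, described further on, had no match in their windows, and sequence more than 250 bases before the start was not searched. The other members with a match were Nfe2l2, Gstm5, Mgst1, Mt2 and Sod1.

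The deposited unit is RPKM, reads per kilobase of gene and per M (mega) reads, where the length is the whole span of the gene with its introns. The values fell on whole reads, which gave depths of 111 M reads with empty vector, 74.7 M with OSKM and 102 M with G3SKM, and of 54.0 M with SKM, the shallowest. A member was called higher or lower when the log2 ratio of RPKM + 1 reached 1 in size, provided that either group held at least 1 RPKM. Folds are ratios of the RPKM themselves, followed by 95% Clopper-Pearson intervals on the reads. These intervals cover the counting error of reads only, and no spread between replicates. PCR copies of a molecule are counted as separate reads, so the intervals may be too narrow even for the counting of molecules. The SKM library stood apart: log2 ratios followed transcript GC content across genes, with Spearman's rho of 0.51 in SKM against empty vector and -0.73 in OSKM against SKM and in G3SKM against SKM, but 0.06 and 0.00 in OSKM and G3SKM against empty vector. Genes share each library, so these are descriptions. The median log2 ratio of all genes compared was itself above 0 against empty vector, by 0.15 with SKM, 0.18 with OSKM and 0.17 with G3SKM. Of 9 fibroblast markers, 7 were at 1 RPKM or more in empty vector, and Dcn (0.259 RPKM) and Lum (0.359 RPKM) were not. Erythroid and endothelial markers had 0 genes at 1 RPKM in any group. Per exon length, however, the endothelial markers summed to 0.186 with empty vector and 3.16 with OSKM, where Tek alone was at 2.80.

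Across the 4 groups the values of 29 members lay within 2-fold and those of 12 within 1.5-fold. Among the 38 members at 1 RPKM or more in at least 1 group, 10 spanned 2-fold or more (26.3%) and 11 lay within 1.5-fold (28.9%). The same shares were 44.1% and 22.2% of the 10860 genes at that level, and of the 7467 protein-coding ones 2943 (39.4%) spanned 2-fold and 1867 lay within 1.5-fold, so the share within 1.5-fold lay near the background. The 10 that spanned 2-fold or more were Prdx1, Txnrd1, Srxn1, Gpx3, Gpx8, Gstm1, Mgst3, Sod2, Nqo1 and Ftl1. The highest value was in empty vector for 12 members, in SKM for 13, in OSKM for 5 and in G3SKM for 9. In bulk RNA, fewer cells of a type and less RNA per cell cannot be told apart, here and in every result below.

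In SKM against empty vector, 4 of the 38 members compared (10.5%) were lower, namely Srxn1, Gpx8, Nqo1 and Prdx1, against a background of 5.98% of all genes. Only Sod2 was higher, 1 of 38 (2.63%) against 8.88%. In OSKM against empty vector, Srxn1 and Gpx8 were lower, 2 of 36 (5.56%) against 4.16%, and Sod2 was higher, 1 of 36 (2.78%) against 4.82%. In G3SKM against empty vector, Srxn1, Gpx8 and Ftl1 were lower, 3 of 37 (8.11%) against 3.75%, and 0 were higher against 7.11%. Of protein-coding genes alone, 4.38% were lower and 8.57% higher in SKM, 4.52% and 4.48% in OSKM, and 4.26% and 4.67% in G3SKM. The counts of members are small, and the shares in OSKM lay near the background. The median log2 ratio of the members was 0.07 in SKM, -0.03 in OSKM and -0.06 in G3SKM, each below the median of all genes given above. The 3 comparisons share the empty vector values, and so are not independent.

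The counts depended on the scale, since 1 RPKM added to a value per gene span weighs heavily on genes with long introns. On the exon-length scale all 39 members could be compared. In SKM against empty vector, 3 were then higher, Sod2, Mgst3 and Gstm1, against a background of 11.9%, and the same 4 were lower against 7.15%. In OSKM, Sod2 and Mgst3 were higher against 8.92%, and Srxn1, Gpx8, Txnrd1 and Nqo1 were lower against 4.92%. In G3SKM, Mgst3 was higher against 10.2%, and Srxn1, Gpx8, Txnrd1 and Ftl1 were lower against 4.87%. With the trend along GC removed from the deposited values, SKM against empty vector held 1 higher member, Sod2, against 5.73%, and 2 lower, Srxn1 and Gpx8, against 4.41%. In OSKM the calls stood as on the deposited values, 1 higher against 4.47% and 2 lower against 4.19%, and in G3SKM 0 were higher against 6.45% and 2 lower, Srxn1 and Ftl1, against 3.72%.

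**Figure D1:**
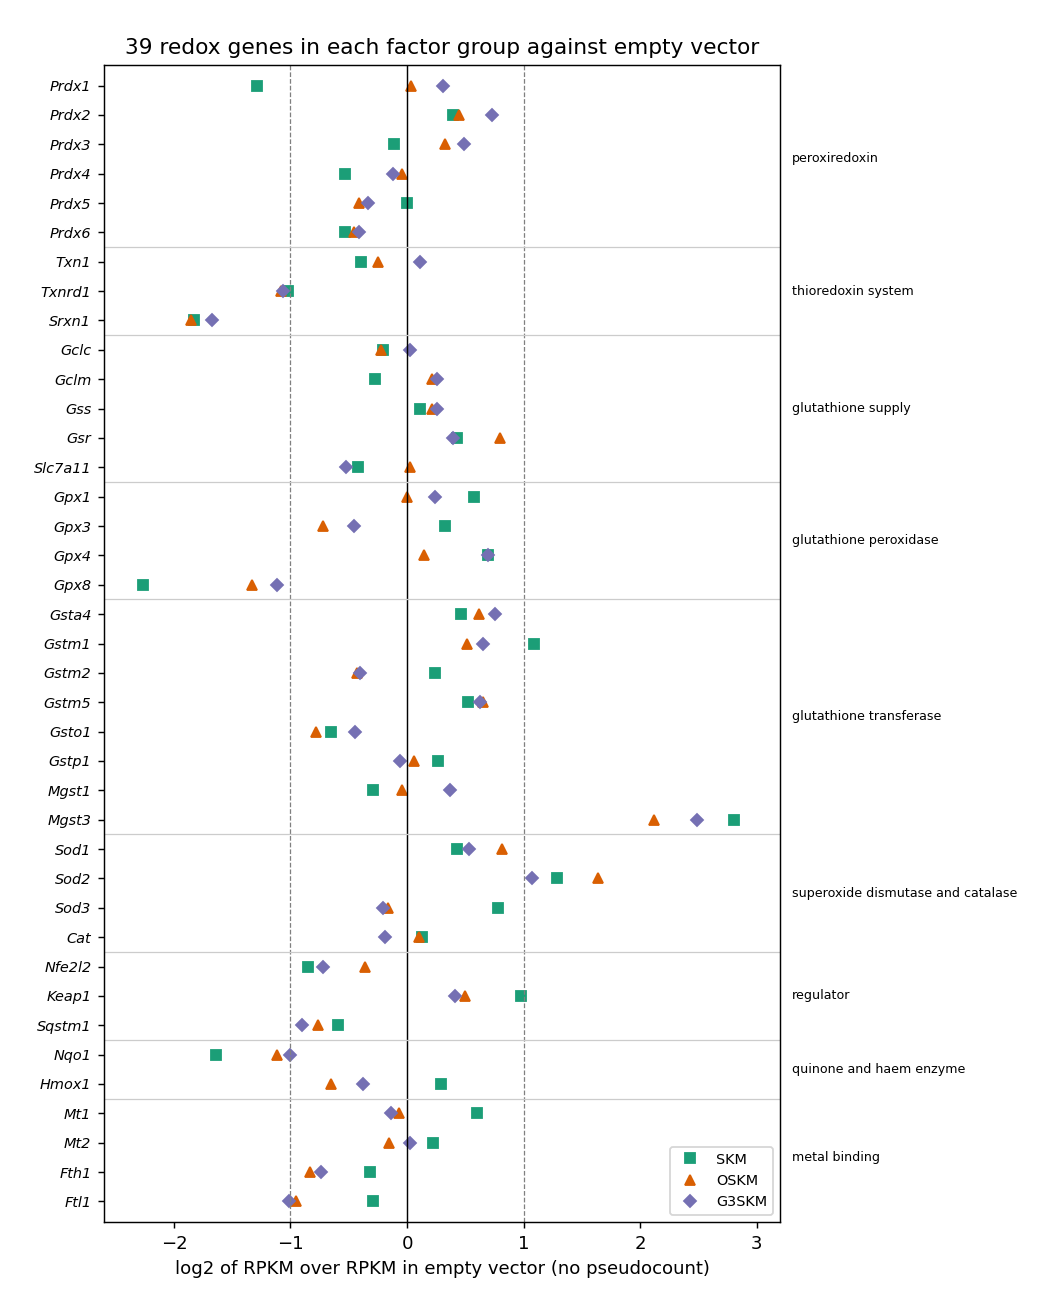
Each row is a member, grouped by role, and each marker is the log2 of its RPKM in SKM, OSKM or G3SKM over its RPKM in empty vector, without pseudocount, with dashed lines at 2-fold. Srxn1, Txnrd1, Gpx8 and Nqo1 lie at the left for all 3 factor groups, Mgst3 and Sod2 lie at the right, and the glutathione supply genes stay between the dashed lines.

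The thioredoxin system held 2 members that were low in every factor group, Srxn1 and Txnrd1. Srxn1, sulfiredoxin, which repairs overoxidised peroxiredoxins, was at 14.6 RPKM with empty vector, 4.13 with SKM, 4.06 with OSKM and 4.59 with G3SKM. All 3 factor groups were low and close together. Srxn1 was 3.54-fold lower in SKM than in empty vector (3.34 to 3.76), 3.61-fold lower in OSKM (3.43 to 3.80) and 3.19-fold lower in G3SKM (3.06 to 3.33). It was called in these 3 comparisons under each alternative run. Txnrd1, the cytosolic thioredoxin reductase that recharges thioredoxin, stood at 7.55 RPKM with empty vector, 3.73 with SKM, 3.58 with OSKM and 3.62 with G3SKM. Again the factor groups lay together, within 1.04-fold of each other, below empty vector. The fold was 2.03 lower in SKM (1.99 to 2.06), 2.11 lower in OSKM (2.08 to 2.15) and 2.09 lower in G3SKM (2.06 to 2.12). With 1 RPKM added, its log2 ratios of -0.85, -0.90 and -0.89 did not reach the rule. Rescaled to exon length, where levels are larger and the added 1 weighs less, they were -0.997, -1.06 and -1.04, and OSKM and G3SKM were called. Txn1, thioredoxin itself, showed no such drop, with 19.0 RPKM with empty vector, 14.5 with SKM, 16.0 with OSKM and 20.5 with G3SKM.

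Among the peroxiredoxins, Prdx1 set SKM apart. Prdx1, an abundant cytosolic peroxiredoxin, was at 17.6 RPKM with empty vector, 7.19 with SKM, 18.0 with OSKM and 21.7 with G3SKM. SKM alone was low, and OSKM lay close to empty vector. Prdx1 was 2.44-fold lower in SKM than in empty vector (2.38 to 2.51), and relative to SKM it was 2.51-fold higher in OSKM (2.44 to 2.58) and 3.02-fold higher in G3SKM (2.94 to 3.10). Its transcript has a GC content of 43.5%, low among the members. With the GC trend removed the log2 ratio went from -1.18 to -0.68 in SKM against empty vector and from 1.22 to 0.80 in OSKM against SKM, and both calls were lost, while G3SKM against SKM kept 1.05. Prdx2, its cytosolic relative, was lowest in empty vector at 35.7 RPKM, with 47.1 in SKM, 48.6 in OSKM and 59.1 in G3SKM. It shares 351 annotated bases with Junb on the other strand, so its level is uncertain, and Junb held 206% as many reads as Prdx2 in empty vector and 26.2% in G3SKM. The mitochondrial Prdx3 ranged from 5.85 to 8.87 RPKM, Prdx4 of the endoplasmic reticulum from 3.52 to 5.08, Prdx5 from 27.7 to 36.8 and Prdx6 from 13.8 to 19.9, and none of these 4 was called in any comparison.

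**Figure D2:**
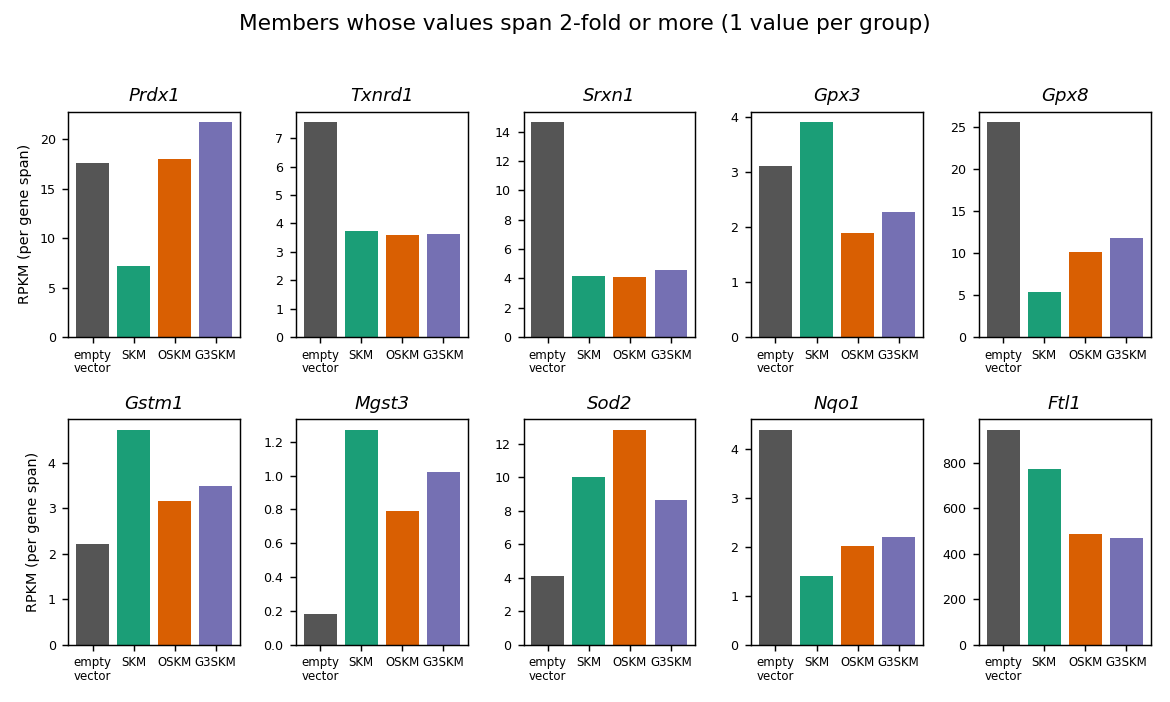
Bars give the deposited RPKM (per gene span, linear axes from 0) of the 10 members whose 4 values span 2-fold or more, with 1 bar per group and no error bars because each group has 1 value. Srxn1 and Txnrd1 are low in all factor groups, Prdx1 is low in SKM alone, and Ftl1 is low in OSKM and G3SKM.

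Of the 5 genes of glutathione supply, 0 were called in any comparison, and Gclc was not compared. Gclm, the modifier subunit of glutamate cysteine ligase, which catalyses the rate-limiting step, was at 32.0 RPKM with empty vector, 26.5 with SKM, 37.0 with OSKM and 38.3 with G3SKM. SKM was the lowest and the other factor groups were above empty vector, within 1.45-fold over all. Its reads may include those of Gm17494, which lies across 14775 of its bases on the other strand and was listed with 104% to 108% as many reads. Gclc, the catalytic subunit, lay under the filter in every group, at 0.951 RPKM with empty vector, 0.824 with SKM, 0.813 with OSKM and 0.970 with G3SKM. Its low value comes with a span of 39951 bases, and per exon length it stood at 8.62 to 10.3. Slc7a11, the cystine importer, was at 1.72 RPKM with empty vector, 1.28 with SKM, 1.75 with OSKM and 1.19 with G3SKM. Gss, glutathione synthetase, ranged from 1.17 to 1.40 RPKM. Gsr, glutathione reductase, was lowest in empty vector at 0.995 RPKM and highest in OSKM at 1.73, which was 1.74-fold higher (1.67 to 1.81).

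The glutathione peroxidases differed from each other. Gpx8, a peroxidase of the endoplasmic reticulum membrane, had 25.5 RPKM with empty vector, 5.31 with SKM, 10.1 with OSKM and 11.8 with G3SKM. All factor groups were low, and SKM was the lowest. Gpx8 was 4.81-fold lower in SKM (4.51 to 5.13), 2.52-fold lower in OSKM (2.42 to 2.63) and 2.16-fold lower in G3SKM (2.09 to 2.24) than in empty vector. Against SKM it was 2.22-fold higher in G3SKM (2.08 to 2.38), a call that was lost at 0.60 once the GC trend was removed, its transcript GC being 43.4%. The call in G3SKM against empty vector also went, at -0.96, while OSKM against empty vector kept -1.15 and SKM -1.57. Gpx8 lies inside Cdc20b on the other strand, and Cdc20b was listed with 101% to 102% as many reads in every group, so the same reads were counted for both genes.

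Gpx1, the cytosolic glutathione peroxidase, was at 265 RPKM with empty vector, 394 with SKM, 266 with OSKM and 313 with G3SKM. Gpx4, which reduces lipid hydroperoxides in membranes, was at 15.4 RPKM with empty vector, 24.9 with SKM, 17.0 with OSKM and 24.9 with G3SKM. Neither was called, and OSKM lay nearest to empty vector in both. With the GC trend removed, the log2 ratio in SKM against empty vector went from 0.57 to 0.24 for Gpx1 and from 0.66 to 0.23 for Gpx4. Gpx3, the secreted plasma form, was at 3.11 RPKM with empty vector, 3.90 with SKM, 1.89 with OSKM and 2.27 with G3SKM. OSKM was 2.07-fold below SKM (1.92 to 2.23), and the log2 ratio of -0.76 with 1 RPKM added stayed under the rule.

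Among the glutathione transferases, which couple glutathione to electrophiles, Mgst3 had the largest range of all members. This membrane-bound enzyme was at 0.182 RPKM with empty vector, 1.27 with SKM, 0.791 with OSKM and 1.02 with G3SKM. Empty vector was low and all factor groups were higher, on 442 reads in empty vector against 1501 with SKM, 1293 with OSKM and 2271 with G3SKM. Mgst3 was 6.98-fold higher in SKM (6.28 to 7.78), 4.35-fold higher in OSKM (3.90 to 4.86) and 5.62-fold higher in G3SKM (5.08 to 6.24). Its long span keeps it near or under 1 RPKM, so the rule on deposited values did not call it. Per exon length it stood at 3.63 with empty vector, 25.3 with SKM, 15.8 with OSKM and 20.4 with G3SKM, and its log2 ratios of 2.51, 1.86 and 2.21 were called. Gstm1 was at 2.21 RPKM with empty vector, 4.72 with SKM, 3.15 with OSKM and 3.48 with G3SKM, a 2.13-fold difference between SKM and empty vector (1.98 to 2.30) whose log2 ratio reached 1.01 on the exon-length scale and 1.06 with a pseudocount of 0.1 RPKM. Gsto1, an omega-class enzyme, ran the other way, with 29.1 RPKM with empty vector, 18.6 with SKM, 16.9 with OSKM and 21.3 with G3SKM. Its span lies within Cfap43 on the other strand, which was listed with 115% to 144% as many reads. Gsta4, Gstm2, Gstm5, Gstp1 and Mgst1 each spanned less than 2-fold and were not called, and Gstp1, the highest of them per exon length, ranged from 69.9 to 87.5 RPKM.

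Sod2, the mitochondrial superoxide dismutase, was the 1 member that was higher by the rule against empty vector, in SKM and in OSKM. It was at 4.11 RPKM with empty vector, 10.0 with SKM, 12.8 with OSKM and 8.64 with G3SKM. Empty vector was the lowest and OSKM the highest. Sod2 was 2.44-fold higher in SKM (2.35 to 2.54), 3.12-fold higher in OSKM (3.01 to 3.23) and 2.10-fold higher in G3SKM (2.03 to 2.18) than in empty vector. The log2 ratio of 0.92 in G3SKM was under the rule, and that of 1.11 in SKM went to 0.96 when ratios were centred on the median of all genes. Sod1, the cytosolic enzyme, was at 14.2 RPKM with empty vector, 19.1 with SKM, 25.1 with OSKM and 20.5 with G3SKM, in the same order as Sod2 but for SKM and G3SKM. Sod3, the extracellular enzyme, ranged from 0.619 to 1.23 RPKM, and Cat, catalase, from 1.91 to 2.38.

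None of the 3 regulators was called on deposited values. Nfe2l2, the gene of NRF2, was at 2.26 RPKM with empty vector, 1.25 with SKM, 1.75 with OSKM and 1.37 with G3SKM. It was highest in empty vector, and 1.80-fold lower in SKM (1.72 to 1.90), 1.29-fold lower in OSKM (1.24 to 1.34) and 1.65-fold lower in G3SKM (1.59 to 1.71). The log2 ratio of Nfe2l2 in SKM went from -0.53 to -0.13 when the GC trend was removed. In OSKM and G3SKM it hardly moved, at -0.23 and -0.46. Keap1, whose product inhibits NRF2, was lowest in empty vector at 3.66 RPKM, with 7.21 in SKM, 5.19 in OSKM and 4.86 in G3SKM. The 1.97-fold difference in SKM (1.88 to 2.06) came with a transcript GC of 59.4%, the highest among the members, and its log2 ratio went from 0.82 to 0.40 when the GC trend was removed. Sqstm1, the gene of p62, which binds KEAP1 and carries it to autophagy, was at 20.3 RPKM with empty vector, 13.47 with SKM, 12.0 with OSKM and 10.8 with G3SKM. Each factor group was lower, by 1.51-fold (1.47 to 1.54), 1.70-fold (1.66 to 1.73) and 1.87-fold (1.83 to 1.91) in that order.

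Nqo1, the quinone reductase often used as a readout of NRF2, was at 4.39 RPKM with empty vector, 1.41 with SKM, 2.02 with OSKM and 2.19 with G3SKM. All factor groups were low, with SKM the lowest. Nqo1 was 3.11-fold lower in SKM (2.92 to 3.31), 2.17-fold lower in OSKM (2.07 to 2.27) and 2.00-fold lower in G3SKM (1.92 to 2.09). The rule called it in SKM at -1.16, which went to -0.81 with the GC trend removed, and on the exon-length scale it was also called in OSKM at -1.08. Hmox1, the inducible haem oxygenase, did not follow Nqo1, with 8.46 RPKM with empty vector, 10.4 with SKM, 5.39 with OSKM and 6.51 with G3SKM. On deposited values Hmox1 was higher than empty vector in SKM and lower in OSKM and G3SKM. With the GC trend removed its log2 ratio in SKM went from 0.26 to 0.02, while OSKM and G3SKM stayed lower, at -0.65 and -0.40.

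Ferritin stores iron, and its light chain had the highest level per exon length among the members. Ftl1, its light chain, was at 942 RPKM with empty vector, 771 with SKM, 487 with OSKM and 467 with G3SKM. Fth1, the heavy chain, was at 240 RPKM with empty vector, 193 with SKM, 135 with OSKM and 143 with G3SKM. On deposited values both chains were highest in empty vector, a little lower in SKM and lower again in OSKM and G3SKM. With the GC trend removed, the log2 ratio of Ftl1 went from -0.29 to -0.72 in SKM against empty vector. Against SKM it went from -0.66 to -0.30 in OSKM and from -0.72 to -0.36 in G3SKM, its transcript GC being 57.7%. Fth1 moved less, from -0.31 to -0.41 in SKM against empty vector and from -0.51 to -0.50 in OSKM against SKM. Ftl1 was 1.22-fold lower in SKM (1.21 to 1.23), 1.93-fold lower in OSKM (1.92 to 1.95) and 2.02-fold lower in G3SKM (2.00 to 2.03), and the rule called it in G3SKM. Fth1 was 1.24-fold (1.23 to 1.26), 1.78-fold (1.75 to 1.80) and 1.67-fold (1.65 to 1.69) lower. Centred on the median of all genes, both chains were called in OSKM, at -1.13 for Ftl1 and -1.005 for Fth1.

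A near-identical copy, Ftl1-ps1, held 75.7% to 88.7% as many reads as Ftl1, so the split between the genes is uncertain. Their summed reads per M reads were 3436 with empty vector, 2629 with SKM, 1730 with OSKM and 1709 with G3SKM, which is 1.31-, 1.99- and 2.01-fold lower. Tfrc, the transferrin receptor that brings iron into the cell and is no member, was at 2.28 RPKM with empty vector, 2.64 with SKM, 6.80 with OSKM and 5.91 with G3SKM. It was high where ferritin was low, 2.98-fold higher in OSKM (2.89 to 3.07) and 2.59-fold higher in G3SKM (2.51 to 2.67) than in empty vector. The metallothioneins, which bind zinc and copper, were not called, and Mt1 ranged from 35.6 to 59.3 RPKM and Mt2 from 29.5 to 38.2, both highest in SKM. With the GC trend removed, the log2 ratio in SKM against empty vector went from 0.58 to 0.34 for Mt1 and from 0.21 to -0.03 for Mt2.

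Macrophages are rich in ferritin and haem oxygenase, and their markers differed between the groups too. All 10 macrophage markers were lower in every factor group than in empty vector, and their summed level per exon length was 154 with empty vector, 14.4 with SKM, 5.64 with OSKM and 11.0 with G3SKM. The number at 1 RPKM or more was 7 with empty vector, 3 with SKM, 1 with OSKM and 2 with G3SKM. Lyz2, lysozyme, was at 16.4 RPKM, 1.37, 0.276 and 1.10 in the same order, and Adgre1, the F4/80 antigen, at 0.0381 RPKM in empty vector with 529 reads and 15, 9 and 13 reads in the factor groups. The summed level of the 9 fibroblast markers was 2032 with empty vector, 1574 with SKM, 880 with OSKM and 887 with G3SKM on the same scale. Of these 9, 7 were lower than in empty vector in each factor group, though not the same 7. Dcn was higher in every one, Col1a1 was higher in SKM, and Lum was higher in OSKM and G3SKM. The summed level of the 5 keratinocyte markers was 0.185, 85.5, 41.8 and 58.2 in the same order, nearly all of it Krt14. Both ferritin chains were lower in each factor group than in empty vector, and Hmox1 was lower in OSKM and G3SKM. In SKM, Hmox1 was higher on deposited values, but its log2 ratio was 0.02 with the GC trend removed. The part of these cell type markers in the values of the redox genes was not tested.

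**Figure D3:**
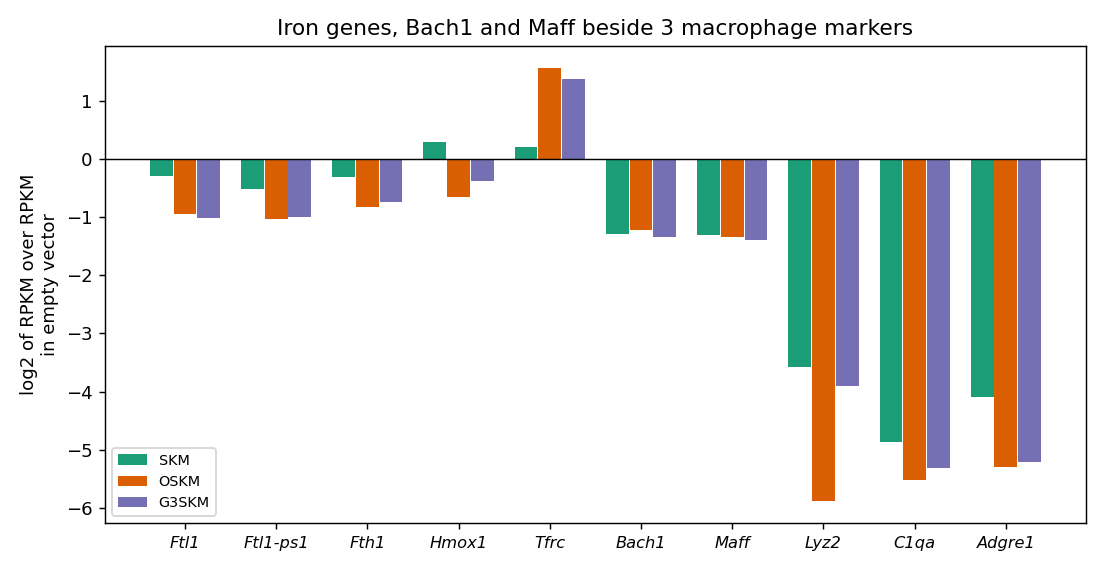
Bars give the log2 of the RPKM in SKM, OSKM and G3SKM over the RPKM in empty vector for ferritin genes and Ftl1-ps1, Hmox1, Tfrc, the repressor Bach1, the small MAF Maff and 3 macrophage markers picked for display. Ferritin lies lower in OSKM and G3SKM than in SKM, Tfrc lies highest in the groups where ferritin lies lowest, and the macrophage markers lie far below 0 in all 3 factor groups. The GC trend is not removed here.

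On the exon-length scale, which allows levels of different genes to be set side by side, the members covered a wide range. Ftl1 led every group, at 1364 with empty vector, 1117 with SKM, 706 with OSKM and 676 with G3SKM. In empty vector Txn1 (236), Gpx1 (196), Fth1 (165) and Gsto1 (141) came next, and Sod3 (1.42) was last, after Mgst3 (3.63). In G3SKM the order behind Ftl1 was Txn1 (254), Gpx1 (231), Gclm (149) and Gpx4 (134). Exon lengths come from a later annotation than the values, and for Fth1, Gpx1, Sod2, Slc7a11 and Gsta4 the span that gave whole reads was well short of the annotated one, so their exon-length levels are uncertain. All members together took 0.706% of the reads with empty vector, 0.606% with SKM, 0.560% with OSKM and 0.583% with G3SKM. Without both ferritin chains the sums were 4656, 4106, 4333 and 4584 reads per M reads in the same order, so most of the difference of OSKM and G3SKM from empty vector lay in ferritin.

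**Figure D4:**
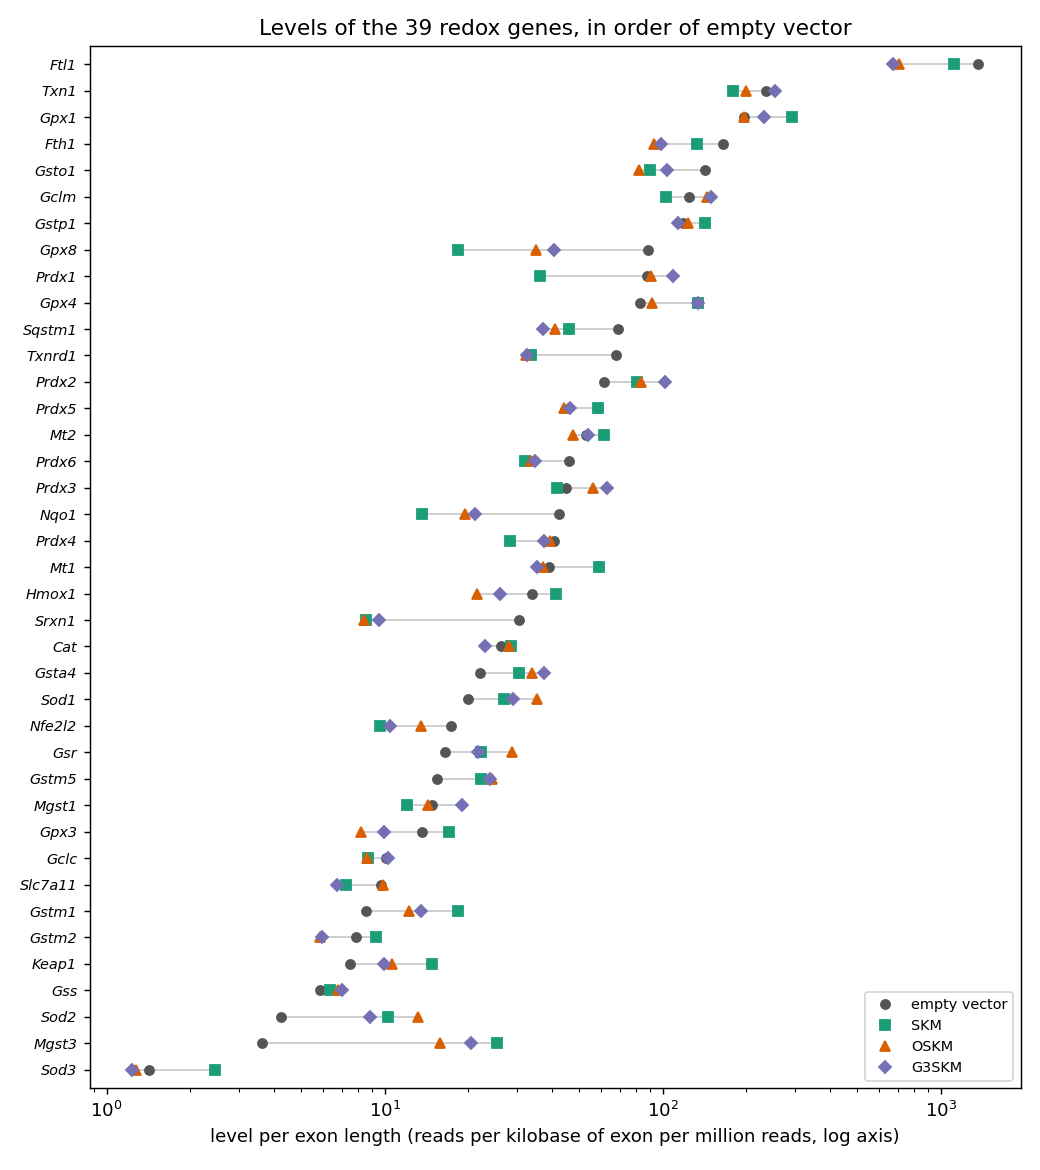
Markers give the level of each of the 39 members per exon length (log axis) in the 4 groups, in order of the level in empty vector, and grey lines join the lowest and the highest group. Ftl1 stands alone at the top, near 1364 in empty vector, and Gpx8, Srxn1, Nqo1, Sod2 and Mgst3 have the longest lines.

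The groups with OCT4 and with GATA3 were compared through the members in 3 ways. These groups also differed in the shared factors. Sox2 was at 187 RPKM with SKM, 110 with OSKM and 70.7 with G3SKM. Klf4 was at 19.3, 13.9 and 8.55 RPKM and Myc at 11.9, 10.5 and 6.31 in the same order. With empty vector Sox2 was at 0.260 RPKM, Klf4 at 6.26 and Myc at 16.0, so Myc was not higher in any group that carried it. The values do not separate delivered RNA from the cells' own. Pou5f1, the gene of OCT4, was at 3.69 RPKM with OSKM, and Gata3 at 0.571 with G3SKM. The part of these differences in the values of the members was not tested. In OSKM against SKM, 1 of 38 members was higher (2.63%), Prdx1, against a background of 2.55%, and 0 were lower against 1.64%. In G3SKM against SKM, 2 of 38 were higher (5.26%), Prdx1 and Gpx8, against 4.43% of all genes, and 0 were lower against 1.10%. In OSKM against G3SKM, 0 of 37 were called, against 2.97% of all genes in either direction. Of protein-coding genes alone, 0.951% were higher and 1.18% lower in OSKM against SKM. The same shares were 0.717% and 0.516% in G3SKM against SKM, with 1.10% in either direction in OSKM against G3SKM. Whether 1 or 2 members exceed these lower shares was not tested. The widest gaps between OSKM and G3SKM were 1.48-fold for Sod2, higher in OSKM (1.44 to 1.53), and 1.46-fold for Gpx4, higher in G3SKM (1.43 to 1.496). Slc7a11 also lay 1.47-fold higher in OSKM. With the GC trend removed, 0 of 38 members were called in OSKM against SKM, against a background of 0.96% higher and 1.03% lower. In G3SKM against SKM, Prdx1 was then the 1 member called higher, against 1.79% of all genes, and 0 were lower against 0.613%.

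**Figure D5:**
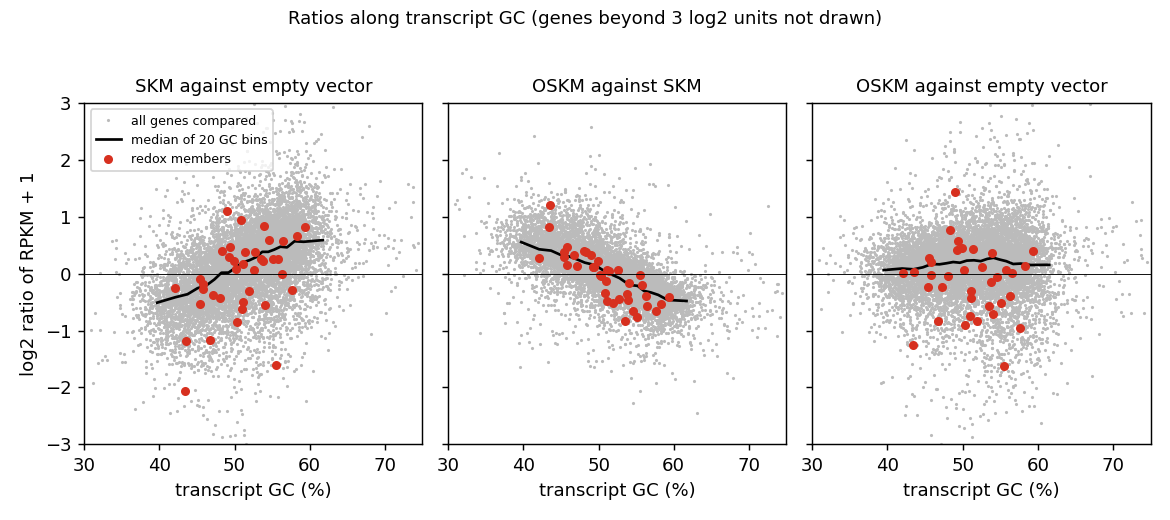
Each panel plots the log2 ratio of RPKM + 1 against transcript GC content in percent for all genes compared (grey), the median of 20 GC bins (line) and the redox members (red). The line climbs in SKM against empty vector (rho 0.51), descends in OSKM against SKM (rho -0.73) and is nearly flat in OSKM against empty vector (rho 0.06), and the members spread around it.

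Of 80 other redox genes listed by role, 47 could be compared in SKM against empty vector, and 4 were higher (8.51%) and 0 lower. They were the aldehyde dehydrogenase Aldh3a1, the carbonyl reductases Cbr1 and Cbr3, and the glutathione peroxidase Gpx2. In OSKM against empty vector, 3 of 48 were higher (6.25%), Aldh3a1, Tfrc and Cbr1, and 1 was lower (2.08%), Chac1, whose product breaks down glutathione. In G3SKM against empty vector, Aldh3a1 and Tfrc were higher and Chac1 was lower, of 47. The shares of all genes are those given above for each comparison. With the GC trend removed, 3 of the 47 were higher (6.38%) and 2 lower (4.26%) in SKM, while the counts in OSKM and G3SKM stood. On the exon-length scale, 11 of 69 were higher in SKM (15.9%) and 5 lower (7.25%), 10 of 63 higher in OSKM (15.9%) and 4 lower (6.35%), and 9 of 67 higher in G3SKM (13.4%) and 4 lower (5.97%), against the shares given above for that scale. With exon length and GC together, 6 of 69 were higher in SKM (8.70%), against a background of 7.83%, and 3 were lower (4.35%), against 5.54%. Against SKM, Tfrc was the 1 gene of 47 called in OSKM, and 0 of 45 were called in G3SKM. The Tfrc call in OSKM, at 1.10, was lost at 0.54 with the GC trend removed, while against empty vector Tfrc kept 1.36 in OSKM and 1.05 in G3SKM.

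Aldh3a1, which oxidises fatty and aromatic aldehydes, had 12 reads in empty vector (0.00992 RPKM) and was at 3.97 RPKM with SKM, 2.90 with OSKM and 5.03 with G3SKM. It was nearly unread in empty vector and plain in all factor groups, 400-fold (228 to 775), 292-fold (167 to 566) and 507-fold (290 to 982) higher. Gpx2, best known from the gut epithelium, had 0 reads with empty vector, 190 with SKM, 39 with OSKM and 275 with G3SKM. Against a floor of 3 reads in empty vector it was at least 130-fold higher in SKM, 19.3-fold in OSKM and 100.3-fold in G3SKM, before counting error in the factor groups. The lower 95% Clopper-Pearson limit in SKM, taken on the 0 reads of empty vector and not on this floor, was 105-fold. Chac1 was at 8.96 RPKM with empty vector, 3.99 with SKM, 2.75 with OSKM and 2.47 with G3SKM, lower in all factor groups, by 2.25-fold (2.07 to 2.44), 3.25-fold (2.99 to 3.54) and 3.62-fold (3.35 to 3.92).

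Some genes of this list lay under the rule on deposited values and passed it per exon length in all 3 factor groups, and 4 of them are named here after their values were seen. Bach1, the repressor at antioxidant response elements, was at 2.03 RPKM with empty vector, 0.826 with SKM, 0.874 with OSKM and 0.798 with G3SKM. Maff, a small MAF partner, was at 3.14 RPKM with empty vector, 1.28 with SKM, 1.25 with OSKM and 1.20 with G3SKM. Both were lower in all factor groups, Bach1 by 2.32- to 2.54-fold and Maff by 2.46- to 2.61-fold. With exon length and GC together, Bach1 lost its call in SKM, at -0.95, and kept it in OSKM and G3SKM, and Maff kept it in all 3. The other small MAF genes were not called, with log2 ratios of 0.31, -0.28 and 0.18 for Mafg and -0.10, -0.55 and -0.30 for Mafk in SKM, OSKM and G3SKM against empty vector. Hagh, a glyoxalase that frees glutathione, was at 0.510 RPKM with empty vector, 1.76 with SKM, 1.31 with OSKM and 1.52 with G3SKM, and Msrb3, a methionine sulfoxide reductase, at 1.77, 0.426, 0.537 and 0.557. Hagh was thus lowest and Msrb3 highest in empty vector, and on the exon-length scale both passed the rule in all 3 factor groups. Txnrd3 and Abcc4, under the filter on deposited values, also passed it on that scale in all 3, both higher. Per exon length Txnrd3 was at 3.43 with empty vector, 8.99 with SKM, 8.63 with OSKM and 9.03 with G3SKM. Abcc4 was at 2.18, 7.39, 5.62 and 5.96 in the same order.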

How the data were processed

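The RNA-seq values of 4 groups came as 3 tables of pairs of groups. RPKM, per the file headers, is the unit the authors deposited, with 1 value per group and a log2 ratio per table. TopHat 1.3.0 and mm9 come from the submitters' processing notes, with the read counter, annotation and pooling of replicates not given in the sources used here. The SKM values were identical in all tables (largest difference 0), so columns of different tables were set side by side.

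A value of 0.001 was read as 0. Symbols, spans, exon lengths and GC came from GENCODE, a later build, so no coordinates of the values are given. Value times span fell within 0.05 of whole reads for 74.7% to 76.7% of genes. For the members, 24 used the annotated span and 15 the shortest length that gave whole reads in all groups, with a largest distance of 0.00066 from a whole number. Strand of counting is not stated, and overlapping genes shared reads.

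There were 6 comparisons, called by size without a test, on log2 of RPKM + 1 from the deposited values. Alternatives were pseudocounts of 0.1 and 5 RPKM, a filter of 5 RPKM and none, centring on the median, a trimmed mean (30% of ratios, 5% of levels), exon length, removal of the GC trend in 20 bins, both together, and protein-coding genes alone. The members and lists were chosen with earlier results of these data known. Named in full were members called in any comparison or 2-fold apart, with the 3 largest called changes each way among other redox genes. The calculation was tested on simulated data. Python 3.11.15, pandas 2.3.3, numpy 2.4.6, SciPy 1.17.1 and matplotlib 3.10.9 were used.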

Additional observations from a re-analysis of the deposited data

How the results depend on the processing

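No paired analysis was possible because each group has 1 value that stands for 2 replicates, and no replicate could be left out. Under 10 alternatives, no called member changed direction, 31 member values gained a call and 17 lost it. In SKM against empty vector, 5 members were called, 2 with a pseudocount of 5 RPKM, 3 with the GC trend removed, 7 with a pseudocount of 0.1 RPKM, 7 with exon length, and 6 with exon length and GC together. In OSKM against SKM, 1 was called, 2 with a pseudocount of 0.1 RPKM, and 0 with a pseudocount of 5 RPKM, with the GC trend removed, or with exon length and GC together. In G3SKM against SKM, 2 were called, and 1 under each of the pseudocount of 5 RPKM, the GC removal, and exon length and GC together. In OSKM against empty vector, 3 were called, 5 with a pseudocount of 0.1 RPKM, 7 centred on the median, and 6 with trimmed-mean scaling, with exon length, and with exon length and GC together. In G3SKM against empty vector, 3 were called, 6 with a pseudocount of 0.1 RPKM, and 5 centred, with trimmed-mean scaling, with exon length, and with exon length and GC together. In OSKM against G3SKM, 0 were called under each alternative. A larger pseudocount shrinks the ratios of low genes by construction, and the cause of the other moves was not tested. Depth does not limit most members, the fewest reads being 355 for Sod3 in OSKM, but without replicate values no difference can be set against biological spread.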
